A study of Mus musculus with 32 samples.

Results

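Matrix metalloproteinases (MMPs) are zinc-dependent enzymes that cut collagens, elastin, proteoglycans and other proteins outside the cell. Most are made as inactive proenzymes, are switched on by the removal of a propeptide, and are held in check by the tissue inhibitors of metalloproteinases (TIMPs). In the heart, fibroblasts are a main source of both the matrix and the enzymes that turn it over. The 10 MMP genes described here are Mmp2, Mmp3, Mmp9, Mmp10, Mmp11, Mmp12, Mmp13, Mmp14, Mmp19 and Mmp23. They were chosen by name with earlier results of these data known, and 13 other MMP genes lie outside the set. Counts over the 10 are therefore not those of the whole family. They are 10 of the 55414 gene identifiers in the count table, and all 10 passed the filter on low counts that left 16760 genes for testing.

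The libraries were made from polyadenylated RNA of mouse cardiac fibroblasts in culture at passage 1, grown in serum with bFGF before the experiment. The cells carry a floxed Pkm2 allele on C57BL/6J per the genotype label, and were given either iCre, a Cre recombinase that deletes floxed DNA, or LacZ, the control that leaves the allele in place. Each vector was combined with SS, which the titles do not spell out and which has no added factor, bFGF at 20 ng/ml, IL-1b at 15 ng/ml or TGFb at 10 ng/ml for 24 h in serum-free starvation, giving 8 groups of 4 libraries. Groups follow the sample titles, because the treatment labels of all the LacZ libraries contradict their titles, and the protocol text names floxed TAK1 mice and a TNFa arm that no title carries. The replicate numbers 1 to 4 recur in each group, and where the cells behind a number came from is not stated, so the p-values measure the spread between these libraries only.

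Library totals ran from 20736203 to 34995038 counts. Pkm, the gene of the floxed allele, was lower in iCre in 16 of 16 matched pairs (1 iCre and 1 LacZ library sharing condition and number), by 0.50 ± 0.11 (SE) on the log2 scale averaged over conditions (edgeR adjusted p = 0.0744, or 0.0038 with the replicate number as a block), and whole-gene counts do not separate the Pkm2 isoform. Map3k7, which encodes TAK1, differed by -0.08 (edgeR adjusted p = 0.855). All 10 fibroblast markers had a median above 1 CPM (counts scaled to a common library size) over the libraries. All 6 lymphocyte markers and all 8 neutrophil markers had a median below it. So did 2 of 5 mural, 6 of 7 endothelial, 4 of 6 cardiomyocyte, 3 of 4 mesothelial and 2 of 4 Schwann markers. Markers of types other than fibroblasts were therefore present, and the summed mural markers were at 129 to 1089 CPM over the libraries. Which cells carried these transcripts was not tested. The 15 macrophage markers followed the replicate number: their summed level was 425 to 1142 CPM in the libraries numbered 3 and 40.9 to 122 CPM in those numbered 4. In bulk RNA, fewer cells of a type and less RNA per cell cannot be told apart.

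Mmp13, Mmp12, Mmp3 and Mmp10 lie together on chromosome 9 at GRCm38 chr9:7272514-7699585, a stretch of 427.1 kb that holds 10 MMP genes. The others lie apart: Mmp2 at chr8:92827291-92853420, Mmp9 at chr2:164940780-164955850, Mmp11 at chr10:75923222-75936496, Mmp14 at chr14:54431612-54445364, Mmp19 at chr10:128790910-128800824 and Mmp23 at chr4:155650655-155653384. All are annotated as protein-coding. Promoter windows of 300 bases, 250 before the annotated start and 50 after, were matched by symbol in RefSeq (GRCm38.p6) for 7 of the 10 genes, in 9 windows. No window was found for Mmp2, Mmp9 and Mmp19, so nothing is said of their promoters. The stretches below run from 100 bases before the start to 20 after. They are shown because the cluster genes share a pair of motifs that the windows of Mmp11, Mmp14 and Mmp23 do not hold. Capitals mark matches to the AP-1 element, TGANTCA, which Fos and Jun proteins bind, and to the TATA box, TATAAA, both searched on both strands.
Mmp13, chr9:7272414-7272533, plus strand: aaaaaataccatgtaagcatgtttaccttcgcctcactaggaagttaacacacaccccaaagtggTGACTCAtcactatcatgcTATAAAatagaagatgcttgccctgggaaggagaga
Mmp12, chr9:7347274-7347393, plus strand: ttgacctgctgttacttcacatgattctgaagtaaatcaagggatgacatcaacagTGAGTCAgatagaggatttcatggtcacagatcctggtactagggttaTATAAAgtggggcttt
Mmp3, chr9:7445722-7445841, plus strand: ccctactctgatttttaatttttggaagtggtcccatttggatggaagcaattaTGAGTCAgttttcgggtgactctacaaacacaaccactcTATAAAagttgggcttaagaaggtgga
Mmp10, chr9:7502242-7502361, plus strand: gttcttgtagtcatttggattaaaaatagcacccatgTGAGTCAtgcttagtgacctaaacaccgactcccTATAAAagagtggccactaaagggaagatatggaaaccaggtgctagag
Mmp11, chr10:75932483-75932602, minus strand: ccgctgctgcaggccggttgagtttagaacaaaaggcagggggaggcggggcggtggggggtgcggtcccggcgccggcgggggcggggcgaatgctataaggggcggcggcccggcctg
Mmp14, chr14:54431498-54431617, plus strand: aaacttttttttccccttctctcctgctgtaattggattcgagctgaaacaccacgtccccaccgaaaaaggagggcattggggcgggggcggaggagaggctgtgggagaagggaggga

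Both motifs were present in 4 of the 5 windows of the chromosome 9 genes, the exception being the other window of Mmp12, and in 0 of the 4 windows of Mmp11, Mmp14 and Mmp23. The AP-1 match began 35 bases before the annotated start in Mmp13, 44 in Mmp12, 46 in Mmp3 and 63 in Mmp10. The TATAAA match began 16 bases before it in Mmp13, 7 in Mmp3 and 29 in Mmp10. In Mmp12 it lay past the annotated start, at position 5. Among all 32851 mouse windows of the same length, 7.808% held TGANTCA and 13.616% held TATAAA. The cluster windows had a GC content of 37.7% to 43.7%, against 56.0% to 67.0% in the windows of Mmp11, Mmp14 and Mmp23 and a median of 52.7% over all windows. The PEA3 element, AGGAAG, which ETS factors bind, was found for Mmp13, Mmp12, Mmp3 and Mmp14. In Mmp12 it lay only in the other window, which is not printed and holds neither an AP-1 nor a TATAAA match. It is in 35.351% of all windows, and 38.42% of all genes have it in a window. The TGF beta inhibitory element was in 1.005% of all windows and in none of the 9. These are matches of letters and not measurements of binding.

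**Figure D1:**
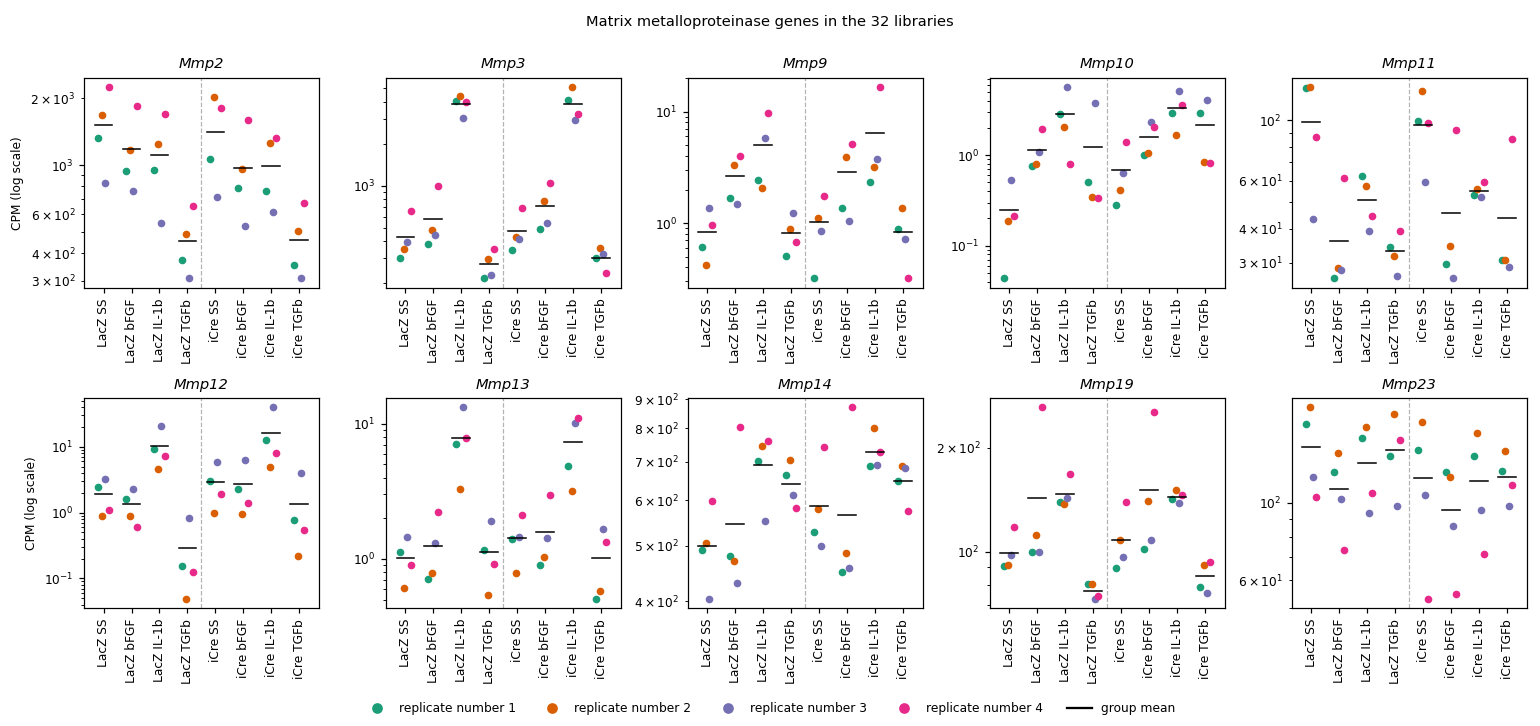
Level of each of the 10 genes in each of the 32 libraries, as CPM on log axes that differ between panels. Points are libraries coloured by replicate number, black bars are group means of 4 libraries, and the dashed line separates LacZ from iCre; Mmp3 stands at 2981 to 5107 CPM in the 8 IL-1b libraries and at 1040.2 CPM or less elsewhere.

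Per kilobase of merged exon, the 10 genes fell into a high and a low set in every group. In LacZ SS cells the order of the means was Mmp2 at 451 CPM per kb, Mmp3 at 236, Mmp14 at 83.9, Mmp23 at 61.8, Mmp11 at 35.4 and Mmp19 at 28.1, then Mmp13 at 0.381, Mmp12 at 0.264, Mmp9 at 0.237 and Mmp10 at 0.143. The ranges over 4 libraries did not overlap between Mmp3 and Mmp14 or between Mmp19 and Mmp13, and each other pair of neighbours in that order overlapped. The lowest library of the upper 6 genes in LacZ SS therefore lay above the highest library of the lower 4.

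The summed level of the 10 genes per kb was 898 ± 260 CPM per kb (SD, n = 4) in LacZ SS and 864 ± 344 with bFGF, and it was 2722 ± 460 under IL-1b and 490 ± 88.8 under TGFb. The iCre means were 894, 881, 2682 and 506 CPM per kb in the same order. The make-up moved with the stimulus. Mmp2 held 49.1% of the summed level in LacZ SS and 11.8% with IL-1b, where Mmp3 held 79.4%. With TGFb, Mmp3 held 30.8%, Mmp2 27.0% and Mmp14 22.5%, the last against 9.60% in SS. These shares describe transcripts and carry no test.

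**Figure D2:**
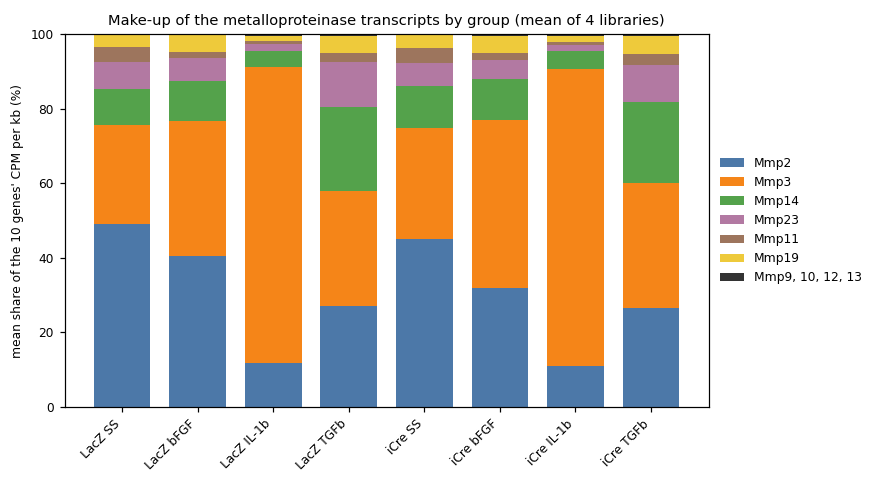
Mean share of each gene in the summed CPM per kb of the 10 genes, in percent, for the 8 groups of 4 libraries, with Mmp9, Mmp10, Mmp12 and Mmp13 drawn as 1 segment. Mmp3 takes 79.4% in LacZ with IL-1b and 79.8% in iCre with IL-1b, and Mmp2 is the biggest share in both SS groups.

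IL-1b raised Mmp3, Mmp9, Mmp10, Mmp12 and Mmp13, which encode stromelysin-1, gelatinase B, stromelysin-2, macrophage elastase and a collagenase. In LacZ cells 5 of 10 genes rose and none fell (Mmp3, Mmp9, Mmp10, Mmp12 and Mmp13, edgeR quasi-likelihood test with Benjamini-Hochberg adjustment over all genes, threshold 0.05), where 11.1% of all genes rose and 8.13% fell. The same number rose in iCre cells, again these 5, where 8.88% of all genes rose and 6.84% fell. The median log2 difference of the 10 genes was 1.503 in LacZ and 1.34 in iCre, beside -0.02 over all genes tested in each.

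Mmp3 encodes stromelysin-1, which cuts proteoglycans and fibronectin and can activate other proenzymes. Its levels in LacZ SS were 302, 349.8, 396 and 655 CPM in replicates 1 to 4, and with IL-1b they were 4077, 4408, 3045 and 3986 CPM. In iCre they went from 344, 427, 417 and 691 CPM to 4116, 5107, 2981 and 3261 CPM. Every IL-1b library stood above every SS library by more than 4-fold, with no overlap in either vector. The rise was 9.11-fold in LacZ (log2 3.19 ± 0.32 SE, edgeR adjusted p = 4.5e-08) and 8.23-fold in iCre (log2 3.04 ± 0.32, edgeR adjusted p = 1.1e-07).

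Mmp13, the main interstitial collagenase of mice, was near 1 CPM without IL-1b, at 1.13, 0.608, 1.44 and 0.898 CPM in LacZ SS. With IL-1b it reached 7.12, 3.27, 13.2 and 7.87 CPM in LacZ, and 4.86, 3.19, 10.2 and 10.98 CPM in iCre. All 8 IL-1b libraries were above all 8 SS libraries. The differences were log2 2.94 ± 0.53 (SE, edgeR adjusted p = 0.00024) and 2.34 ± 0.52 (edgeR adjusted p = 0.0023).

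Mmp10 encodes stromelysin-2, a close relative of the Mmp3 product, and had the lowest mean per kb in LacZ SS. Its LacZ SS levels of 0.0434, 0.187, 0.536 and 0.215 CPM rest on 1 to 13 counts per library, and with IL-1b it stood at 2.89, 2.03, 5.66 and 0.809 CPM. The IL-1b and SS libraries of LacZ did not overlap, although the lowest IL-1b library was 0.809 CPM. The difference was log2 3.51 ± 0.82 (SE, edgeR adjusted p = 0.0032) in LacZ and 2.27 ± 0.75 (edgeR adjusted p = 0.038) in iCre, where 0.283, 0.410, 0.629 and 1.40 CPM became 2.94, 1.67, 5.20 and 3.55 CPM. The LacZ difference was 2.92 without LacZ IL-1b replicate 3 and 4.20 without LacZ SS replicate 3, and the iCre difference was 2.91 without iCre SS replicate 4. The iCre call is near the threshold: it was lost on leaving out any of 6 of the 8 libraries in that comparison, with adjusted p between 0.0543 and 0.116. Counts of 2 paralogs as alike as Mmp3 and Mmp10 can be shared by ambiguous reads, and how such reads were assigned is not given in the sources used here.

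Mmp12 encodes macrophage elastase, an enzyme known mainly from macrophages that degrades elastin. In LacZ it went from 2.43, 0.889, 3.21 and 1.11 CPM in SS to 9.21, 4.56, 20.5 and 7.28 CPM with IL-1b, and in iCre from 2.99, 0.970, 5.92 and 1.93 CPM to 12.5, 5.02, 39.5 and 7.94 CPM. Libraries numbered 3 were the highest in all 8 groups of the study, so the groups spread widely, and the iCre ranges overlapped while the LacZ ranges did not. The differences were log2 2.44 ± 0.83 (SE, edgeR adjusted p = 0.039) in LacZ and 2.46 ± 0.82 (edgeR adjusted p = 0.042) in iCre. Leaving out any of 5 of the 8 libraries ended the call in each vector (adjusted p from 0.0587 to 0.150 in LacZ and from 0.0572 to 0.251 in iCre). The iCre difference was 1.52 without iCre IL-1b replicate 3 and 3.05 without iCre SS replicate 3. With the replicate number as a block, the difference was log2 2.42 in LacZ and 2.30 in iCre, both past the threshold. The summed macrophage markers were higher with IL-1b in 8 of 8 pairs of the same vector and number, by 0.182 to 0.688 on the log2 scale, where Mmp12 was higher by 1.73 to 2.64. Without the block, 0 of the 15 macrophage markers passed the edgeR test in LacZ and 1, Cd14, rose in iCre, by 1.73. Of all genes, 11.1% rose in LacZ and 8.88% in iCre. With the block, 4 of 15 rose in LacZ, where 32.3% of all genes passed. They were Cd14 by 1.33, Fcgr1 by 2.13, Mrc1 by 1.44 and Itgam by 1.39. The block gave 5 of 15 in iCre, where 29% of all genes passed. These 4 were among them, by 1.73, 2.53, 1.84 and 1.48 in that order. The part of the macrophage markers in the Mmp12 difference was not tested.

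Mmp9, gelatinase B, which degrades denatured collagen and basement membrane collagen, stood at 0.608, 0.421, 1.36 and 0.969 CPM in LacZ SS and at 2.41, 2.07, 5.80 and 9.64 CPM with IL-1b. In iCre it went from 0.324, 1.12, 0.851 and 1.76 CPM to 2.31, 3.19, 3.72 and 16.6 CPM. IL-1b and SS libraries did not overlap in either vector, and replicate 4 was the highest with IL-1b in both. The rises were log2 2.56 ± 0.67 (SE, edgeR adjusted p = 0.0077) and 2.65 ± 0.67 (edgeR adjusted p = 0.0069). Without iCre IL-1b replicate 4 the iCre difference was 1.59 (edgeR adjusted p = 0.073). Neutrophils also carry Mmp9. Of the 8 neutrophil markers, S100a9 had 0 counts in all libraries and Ly6g had 0 in 26 of 32, whereas Camp, an antimicrobial peptide gene, rose from 0.0709 to 9.49 CPM in LacZ (means, log2 6.95 ± 0.82 SE). S100a8 rose too, from 0.0269 to 0.653 CPM. Csf3r, the third of the neutrophil markers that could be tested, was at log2 3.10 in LacZ (edgeR adjusted p = 0.0737) and passed with the block, at 3.27 (0.0128). The summed neutrophil markers were at most 0.467 CPM in LacZ SS and 8.76 to 13.8 CPM in LacZ with IL-1b. The 3 testable ones could thus pass the filter on low counts through the IL-1b libraries, which sets their direction in part.

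The remaining members did not pass the test with IL-1b in either vector, although their pairs leaned 1 way. Mmp2, gelatinase A, was lower with IL-1b in 8 of 8 pairs of the same vector and number, at 949, 1239, 547 and 1709 CPM in LacZ against 1331, 1680.1, 826 and 2250.4 CPM in SS. Mmp11, stromelysin-3, was also lower in 8 of 8 pairs, at 62.2, 57.3, 39.2 and 44.5 CPM against 131, 132, 43.3 and 87.0 CPM. Mmp19, an enzyme of basement membranes, was higher in 8 of 8 pairs by 0.0648 to 0.665 on the log2 scale. Mmp14, the membrane-bound enzyme that activates the Mmp2 proenzyme, was higher in 7 of 8, and Mmp23, a small membrane-tethered member, was higher in 2 of 8.

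Libraries with the same replicate number deviated together, and with the number as a block 9 of the 10 genes passed in LacZ with IL-1b, where 32.3% of all genes did. The 4 added genes were Mmp2 at log2 -0.48 (edgeR adjusted p = 0.0035), Mmp11 at -0.91 (0.027), Mmp14 at 0.47 (0.019) and Mmp19 at 0.57 (0.0185). Mmp11 also passed without the block when LacZ SS replicate 3 was left out, at -1.20 (edgeR adjusted p = 0.032). In iCre the block added Mmp2 alone, at -0.47 (edgeR adjusted p = 0.0044), making 6 of 10 where 29% of all genes passed. The log2 sizes barely moved between the fits.

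**Figure D3:**
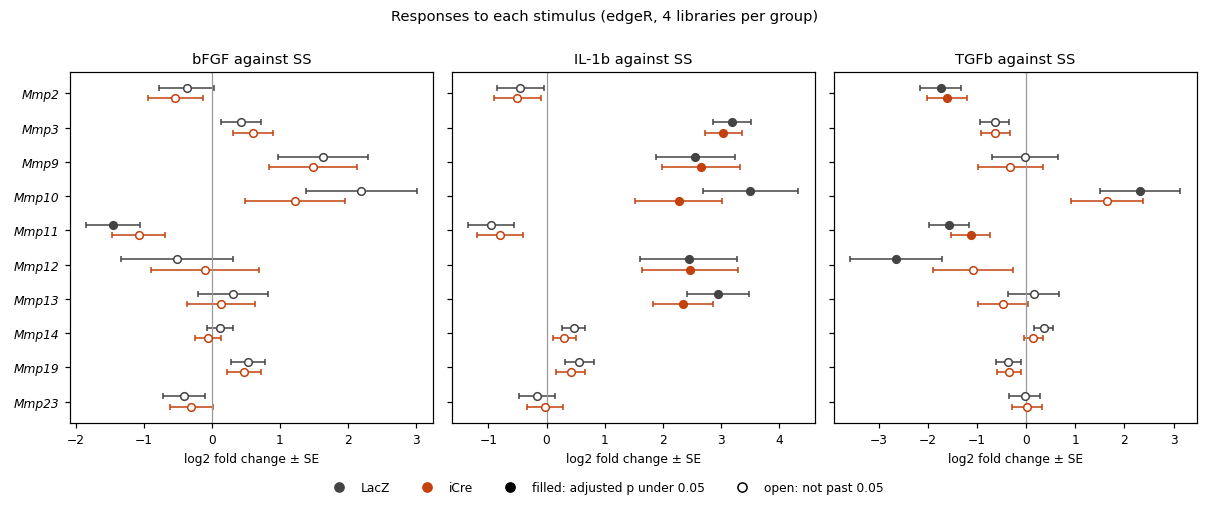
Log2 fold change against SS with its standard error for each of the 10 genes, in LacZ (grey) and iCre (orange), in 1 panel per stimulus, from edgeR on 4 libraries per group. Filled points have an adjusted p under 0.05: 5 genes per vector with IL-1b, 4 in LacZ and 2 in iCre with TGFb, and 1 in LacZ with bFGF.

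The rise with IL-1b extended to genes of the chromosome 9 cluster outside the set of 10. Of the 10 cluster genes, 8 were testable, and 6 of these rose in LacZ and 7 in iCre, where 11.1% and 8.88% of all genes rose. These counts include the 4 cluster genes already described, so the added genes are 2 in LacZ and 3 in iCre. All 8 had a positive log2 difference in both vectors. The filter on low counts asks for counts in as few libraries as 1 group holds. A gene that is low elsewhere can therefore become testable through the IL-1b libraries, which sets its direction in part. Mmp1a, for example, averaged 0.167 CPM in iCre SS and 0.598 CPM in iCre with IL-1b. The positive signs of all 8 can therefore not be read as a test. Mmp8, neutrophil collagenase, rose by log2 3.87 ± 0.93 (SE, edgeR adjusted p = 0.0038) and Mmp27 by 1.80 ± 0.26 (edgeR adjusted p = 1.4e-05) in LacZ. With TGFb the testable cluster genes did not move together: Mmp10 rose and Mmp12 and Mmp27 fell in LacZ. Mmp1a and Mmp1b are paralogs with 200 and 699 counts over all libraries, so their values are uncertain. Mmp1b also overlaps the end of Mmp12 by 1261 bases on the opposite strand, and the sources used here do not give the strand setting of the counting. The same limit touches Mmp11, which overlaps Chchd10 by 3367 bases, and Mmp19, which overlaps Tmem198b by 789 bases, both on the opposite strand. Chchd10 had 838 counts in all beside 50397 for Mmp11, and Tmem198b had 25585 beside 107452 for Mmp19.

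**Figure D4:**
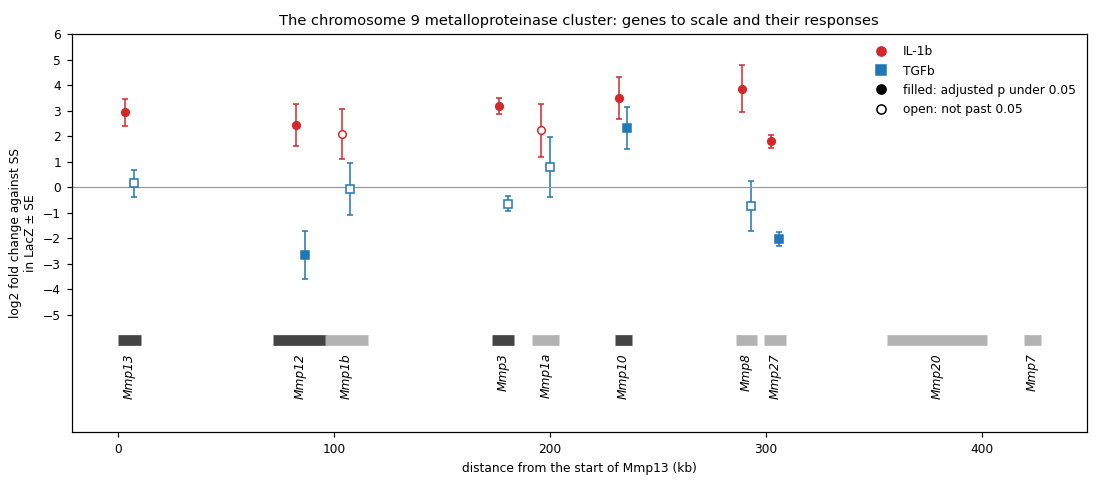
The 10 MMP genes of the chromosome 9 cluster drawn to scale by distance from the start of Mmp13 in kb (dark bars, 4 of the genes described here; light bars, other MMP genes), with the log2 fold change against SS in LacZ and its standard error for the 8 testable genes. All 8 lie above 0 with IL-1b (red), 6 of them past the threshold, and they lie on both sides of 0 with TGFb (blue). For genes low outside the IL-1b libraries, such as Mmp1a, the filter on low counts sets the IL-1b direction in part.

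TGFb lowered Mmp2 and Mmp11 in both vectors. In LacZ cells 3 of 10 genes fell (Mmp2, Mmp11 and Mmp12) and 1 rose (Mmp10), where 22.9% of all genes fell and 23.4% rose. In iCre cells Mmp2 and Mmp11 fell and none rose, where 18.1% fell and 20.2% rose. The median log2 difference was -0.20 in LacZ and -0.41 in iCre, beside -0.06 and -0.05 over all genes.

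Mmp2 had the highest mean per kb in both SS groups, with a range that overlapped that of Mmp3. It stood at 370.4, 488, 309 and 651 CPM with TGFb in LacZ, against 1331, 1680.1, 826 and 2250.4 CPM in SS. In iCre it went from 1061, 2041, 716 and 1816 CPM to 355, 503, 307 and 672 CPM. The TGFb and SS libraries did not overlap in either vector, and replicate 3 was the lowest in all 8 groups. The fall was 3.35-fold in LacZ (log2 -1.74 ± 0.41 SE, edgeR adjusted p = 0.0012) and 3.07-fold in iCre (log2 -1.62 ± 0.41, edgeR adjusted p = 0.0029).

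Mmp11, an enzyme activated inside the cell by furin and poor at cutting matrix proteins, stood at 34.3, 31.8, 26.9 and 39.3 CPM with TGFb in LacZ, below all 4 SS libraries. The fall was log2 -1.57 ± 0.40 (SE, edgeR adjusted p = 0.0022). In iCre, 3 of the TGFb libraries were at 28.8 to 30.8 CPM and replicate 4 was at 84.9 CPM, inside the SS range of 59.5 to 128 CPM. The iCre difference was -1.13 ± 0.39 (SE, edgeR adjusted p = 0.025), and leaving out iCre SS replicate 2 or any 1 of the TGFb replicates 1 to 3 took its adjusted p to between 0.0767 and 0.0816.

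Mmp12 stood at 0.153, 0.0492, 0.842 and 0.126 CPM with TGFb in LacZ, which is 1 to 20 counts per library, all below the SS libraries. The difference was log2 -2.65 ± 0.94 (SE, edgeR adjusted p = 0.022). Leaving out LacZ SS replicate 3 or LacZ TGFb replicate 1, 2 or 4 brought adjusted p to between 0.0589 and 0.0679, and without LacZ TGFb replicate 3 the difference was -4.07 (edgeR adjusted p = 0.0060). In iCre the difference of -1.09 ± 0.82 did not pass (edgeR adjusted p = 0.304), and with the block it was -1.36 (edgeR adjusted p = 0.000193). Without iCre TGFb replicate 3 it was -2.52 (edgeR adjusted p = 0.0301). The summed macrophage markers were lower with TGFb in 8 of 8 pairs, by 0.453 to 0.918 on the log2 scale, and Mmp12 by 0.528 to 2.17. Without the block, 1 of the 15 macrophage markers passed the test in LacZ, Mrc1, a mannose receptor, at log2 -3.48, and 0 passed in iCre. Of all genes, 22.9% fell in LacZ and 18.1% in iCre. With the block, 12 of 15 fell in LacZ and 11 in iCre, where 58.4% and 51.6% of all genes passed in either direction. Among these markers were Mrc1 at -3.41 and -2.19, Cd68 at -1.25 and -0.94, and Ptprc at -1.24 and -0.91, in LacZ and iCre in turn. Their part in the Mmp12 difference was not tested.

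Mmp10 rose with TGFb in LacZ by log2 2.32 ± 0.82 (SE, edgeR adjusted p = 0.021), and the call rests on 1 library: the levels were 0.509, 0.345, 3.79 and 0.336 CPM, and without LacZ TGFb replicate 3 the difference was 0.67 (edgeR adjusted p = 0.50). Leaving out LacZ SS replicate 1 or 2 also ended the call (edgeR adjusted p = 0.071 and 0.058), and without LacZ SS replicate 3 the difference was 3.02. In iCre, Mmp10 stood at 2.92, 0.844, 4.09 and 0.828 CPM and did not pass (log2 1.65, edgeR adjusted p = 0.080). It passed without iCre SS replicate 4, at 2.29 (edgeR adjusted p = 0.0342), and without iCre TGFb replicate 4, at 1.92 (0.0473). With the block, 6 of 10 genes passed in LacZ, where 58.4% of all genes did, by adding Mmp3 at -0.62 (edgeR adjusted p = 0.021) and Mmp14 at 0.38 (0.034). In iCre 5 of 10 did, against 51.6% of all genes, by adding Mmp3 at -0.55 (edgeR adjusted p = 0.045), Mmp10 at 1.49 (0.033) and Mmp12. Both shares of members lie near or below the share over all genes.

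Mmp3 was lower with TGFb in 8 of 8 pairs, at 216, 299, 228 and 351 CPM in LacZ against 302, 349.8, 396 and 655 CPM in SS, with overlapping ranges. The LacZ difference of log2 -0.64 (edgeR adjusted p = 0.0765) was -0.80 without LacZ SS replicate 1 (0.0418). Mmp19 was lower in 8 of 8 pairs too, at 73.0 to 80.6 CPM in LacZ against 90.7 to 117 CPM, and did not pass (log2 -0.37, edgeR adjusted p = 0.236). Mmp9, Mmp13 and Mmp23 had log2 differences between -0.48 and 0.15 without the block and did not pass in either vector or fit.

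bFGF, which was also in the growth medium, had the fewest members past the test. In LacZ, 1 of 10 genes passed the test, a fall of Mmp11, where 0.919% of all genes fell and 1.64% rose, and in iCre 0 of 10 passed where 2.2% of all genes did. In iCre 2742 genes and in LacZ 2760 genes had an unadjusted p under 0.05, and DESeq2 called 0 and 1 members. Mmp11 went from 131, 132, 43.3 and 87.0 CPM to 26.3, 28.7, 28.3 and 61.2 CPM in LacZ, where bFGF replicate 4 stood above SS replicate 3 and the ranges overlapped only there. The difference was log2 -1.45 ± 0.40 (SE, edgeR adjusted p = 0.048), and it was lost without any of LacZ SS replicates 1, 2 and 4 or LacZ bFGF replicates 1, 2 and 3 (adjusted p from 0.0798 to 0.210). In iCre, replicate 4 was at 92.2 CPM with bFGF and the difference was -1.07 ± 0.39 (SE, edgeR adjusted p = 0.152). Without that library the iCre difference was -1.67 and passed (edgeR adjusted p = 0.0127).

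Mmp3, Mmp9, Mmp10 and Mmp19 were higher with bFGF in 8 of 8 pairs, without passing the test. Mmp9 was at 1.67, 3.29, 1.496 and 4.04 CPM in LacZ with bFGF, above all 4 SS libraries (log2 1.63 ± 0.66 SE, edgeR adjusted p = 0.196). Mmp10 was at 0.755, 0.791, 1.08 and 1.95 CPM, also above all 4 (log2 2.20 ± 0.81 SE, edgeR adjusted p = 0.150). Mmp2 was lower in 8 of 8 pairs. With the block, 2 of 10 genes passed in each vector, Mmp11 in both, Mmp10 in LacZ (log2 2.38, edgeR adjusted p = 0.026) and Mmp2 in iCre (-0.54, edgeR adjusted p = 0.0055), where 12.2% and 11.4% of all genes passed.

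Set directly against each other in LacZ cells, the 3 stimuli gave different MMP profiles. These comparisons share libraries with those above. With IL-1b, 6 of 10 genes were higher than with TGFb and none lower, where 18.5% of all genes were higher and 20.6% lower. Mmp12 differed by log2 5.10 ± 0.98 (SE, edgeR adjusted p = 0.00017), Mmp3 by 3.83 ± 0.33, Mmp13 by 2.79 ± 0.53, Mmp9 by 2.59 ± 0.68, Mmp2 by 1.29 ± 0.41 (0.014) and Mmp19 by 0.93 ± 0.25 (0.0044). For Mmp12 this is a 34.2-fold difference that was 91.2-fold without LacZ TGFb replicate 3, and the Mmp2 difference was 0.99 (edgeR adjusted p = 0.074) without LacZ IL-1b replicate 4. Mmp10 did not pass, at 1.18 (edgeR adjusted p = 0.206). It passed with the block, at 1.43 (edgeR adjusted p = 0.033), and without LacZ TGFb replicate 3, at 2.84 (0.00398). Against bFGF, IL-1b gave 3 higher genes, Mmp3 at log2 2.75, Mmp13 at 2.63 and Mmp12 at 2.96, where 7.91% of all genes were higher and 6.91% lower. The Mmp12 call ended without LacZ bFGF replicate 2 or 4 or LacZ IL-1b replicate 3 (edgeR adjusted p from 0.0508 to 0.0693). Mmp14, at 0.34, passed only without LacZ bFGF replicate 4, at 0.59 (edgeR adjusted p = 0.0294), or without all libraries numbered 4, at 0.54.

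TGFb gave lower levels than bFGF for 4 of 10 genes and a higher level for none, where 19.7% of all genes were lower and 21.1% higher. They were Mmp2 at log2 -1.38 ± 0.41 (SE, edgeR adjusted p = 0.0088), Mmp3 at -1.08 ± 0.30 (0.0049), Mmp19 at -0.90 ± 0.25 (0.0057) and Mmp9 at -1.67 ± 0.67 (0.047). For Mmp19 the bFGF libraries were at 99.7, 111, 100.02 and 262 CPM and the TGFb libraries at 80.6, 80.2, 73.0 and 74.3 CPM, so replicate 4 of bFGF stood apart. Without it the Mmp19 difference was -0.42 (edgeR adjusted p = 0.107), that of Mmp3 -0.66 (0.064), that of Mmp2 -1.06 (0.0525) and that of Mmp9 -1.37 (0.136). The Mmp9 call also ended without LacZ bFGF replicate 2 or LacZ TGFb replicate 1, 2 or 4 (edgeR adjusted p from 0.0816 to 0.113). Mmp12 did not pass, at -2.14 (edgeR adjusted p = 0.070), and passed with the block, at -2.37 (edgeR adjusted p = 7.5e-06), and without LacZ TGFb replicate 3 the difference was -3.55 (0.0171). Mmp14 was at 0.23 and passed without LacZ bFGF replicate 4, at 0.49 (edgeR adjusted p = 0.0372).

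The comparison of iCre with LacZ asks how the family differs when Cre is given to cells with a floxed Pkm2 allele. Whole-gene counts do not show how far that allele was recombined. No member passed the test in any condition or averaged over the 4. Averaged over conditions, 0.107% of all genes passed, and within each condition 0 did. The genes with an unadjusted p under 0.05 numbered 317 (SS), 335 (bFGF), 251 (IL-1b) and 526 (TGFb), and DESeq2 called 0 members in each of these and in the average. The interaction of vector and stimulus gave 0 genes of any kind, although 67 genes for bFGF, 93 for IL-1b and 201 for TGFb had an unadjusted p under 0.05, and DESeq2 also called 0 members. The largest member interactions by log2 size were Mmp12 with TGFb, at 1.56 ± 1.23 (SE), and Mmp10 with IL-1b, at -1.23 ± 1.07 (edgeR adjusted p = 1.00 for both), so a different response in the 2 vectors was not detectable at this spread.

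Averaged over conditions, Mmp12 was the member with the widest iCre difference. In SS alone the Mmp10 difference was wider, at log2 1.47 against 0.62 for Mmp12. Mmp12 was higher in iCre in 16 of 16 matched pairs, by 0.0817 to 1.73 on the log2(CPM + 0.5) scale, with a median of 0.50. With TGFb the LacZ levels of 0.153, 0.0492, 0.842 and 0.126 CPM stood beside iCre levels of 0.762, 0.222, 3.95 and 0.541 CPM. The pairs differed most in number 3 and least in number 2, with means over conditions of 1.19 and 0.17. The average difference was log2 1.12 ± 0.42 (SE, edgeR adjusted p = 0.484), and with the block it was 0.97 ± 0.14 (edgeR adjusted p = 0.00051), where 2.83% of all genes passed. With TGFb alone the blocked difference was 2.07 (edgeR adjusted p = 0.031), where 0.0298% of all genes passed.

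The 16 pairs come from 4 replicate numbers. An exact two-sided sign-flip test on the 4 number means gave p = 0.125 for Mmp12, the smallest that 4 numbers allow. Mmp10, Mmp19 and Mmp23 gave the same value. For Mmp12, edgeR on counts summed over the conditions with the number as a block gave 0.57 (adjusted p = 0.276). DESeq2 gave 1.13 (adjusted p = 0.266). The iCre library was deeper than its LacZ partner in 16 of 16 pairs, by 1.02 to 1.22 times in total counts, and the part of depth in this difference was not tested. The summed macrophage markers were higher in iCre in 7 of 16 pairs, with number means of 0.03, -0.54, 0.40 and -0.10, while those of Mmp12 were 0.51, 0.17, 1.19 and 0.56. In the average of iCre against LacZ, 0 of the 15 macrophage markers passed the edgeR test without the block or with it. Of all genes, 0.107% and 2.83% did so. The part of these markers in the Mmp12 difference was not tested.

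Mmp23 stood below LacZ in 14 of 16 matched iCre libraries, with differences of -0.96 to 0.03 and a sign-flip p of 0.125 by the same exact permutation test. Its average was log2 -0.23 ± 0.15 (SE, edgeR adjusted p = 0.825), and -0.26 (edgeR adjusted p = 0.0186) only where each pair of condition and number was its own block, a fit that called 5.86% of all genes. That fit also called Mmp10, higher in 14 of 16 pairs, at 0.86 (edgeR adjusted p = 0.034). On counts summed over the conditions with the number as a block, 0 of 10 members passed. Mmp3 was higher in 13 of 16 pairs and Mmp2 in 5 of 16. The other 5 members were higher in 8 to 11 of 16.

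**Figure D5:**
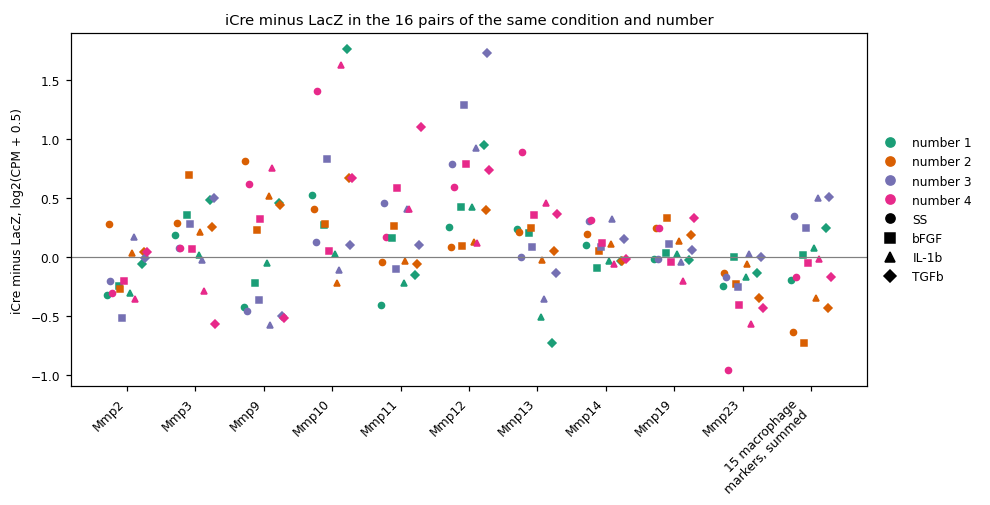
Difference iCre minus LacZ on the log2(CPM + 0.5) scale in each of the 16 matched pairs, by condition (symbol) and replicate number (colour), for the 10 genes and for the summed level of 15 macrophage markers. All 16 Mmp12 points lie above 0 and 14 of 16 Mmp23 points below it, while the macrophage sum lies above 0 in 7.

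The replicate number carried much of the spread of several members. Mmp2 was lowest in number 3 in 8 of 8 groups and highest in number 4 in 7 of 8. Mmp12 was highest in number 3 in 8 of 8 and lowest in number 2 in 7 of 8. The macrophage sum was highest in number 3 and lowest in number 4 in 8 of 8 groups. Mmp23 was highest in number 2 in 7 of 8 groups. The coefficient of variation within a group had a median over the 8 groups of 11.5% for Mmp19 and 14.8% for Mmp14, against 72.9% for Mmp10 and 80.8% for Mmp12.

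Over the 32 libraries, which share stimuli and replicate numbers, the log2 CPM of Mmp3 and Mmp13 had a Pearson r of 0.84 and that of Mmp12 and Mmp13 of 0.81. Mmp2 and Mmp11 had 0.70, and the lowest value between members was -0.51, for Mmp19 and Mmp23. Among 11597 genes outside the family, those most like Mmp3 were Cp (0.98), Birc3 (0.98) and H2-Q4 (0.97). Those most like Mmp13 were Il13ra2 (0.94), Procr (0.92) and Nfkbiz (0.91), those most like Mmp12 were Ampd3, Rassf4 and Bid (0.91 each), and those most like Mmp2 were Acsf2 (0.95), Tle2 (0.95) and Slc4a3 (0.94). The nearest to Mmp9 was Phlda1 (0.91), to Mmp10 Litaf (0.86), to Mmp11 Fbxo32 (0.93), to Mmp14 Btg1 (0.87), to Mmp19 Rgs2 (0.90) and to Mmp23 Sfrp1 (0.88). These values describe the pattern only.

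The inhibitors of MMPs changed in both directions. Of 7 listed, 6 were tested, and with IL-1b in LacZ 1 rose and 2 fell, where 11.1% of all genes rose and 8.13% fell. Timp1 rose from 396 to 1913 CPM (log2 2.27 ± 0.45 SE, edgeR adjusted p = 0.00064), Timp3, the inhibitor bound to the matrix, fell from 2287 to 348 CPM (-2.72 ± 0.52, edgeR adjusted p = 0.00041), and Reck, a membrane-anchored inhibitor, fell by 0.55. With TGFb 3 rose and 2 fell in LacZ, where 23.4% of all genes rose and 22.9% fell. Timp1 was again higher, at 2.36, and Timp2, which also takes part in activating Mmp2 with Mmp14, fell from 2398 to 1016 CPM (-1.24 ± 0.13). Tfpi2, a serine protease inhibitor, rose by 2.40. In iCre the counts were 1 and 1 with IL-1b, where 8.88% of all genes rose and 6.84% fell. They were 3 and 2 with TGFb, where 20.2% rose and 18.1% fell. No inhibitor passed with bFGF in LacZ, with the block or without it, where 12.2% of all genes passed with the block. With the block Tfpi2 also rose with IL-1b in LacZ, by 1.53 (edgeR adjusted p = 0.000197), which made 2 that rose and 2 that fell where 32.3% of all genes passed.

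Of 9 activating enzymes and receptors, 8 were tested. In LacZ, bFGF raised 1, IL-1b raised 2, and TGFb raised 3 and lowered 2, where 1.64%, 11.1% and 23.4% of all genes rose and 22.9% fell with TGFb. With the block bFGF raised 3, now including Plat and Plau, IL-1b raised 2 and lowered 2, Plau and Pcsk6, and TGFb raised 3 and lowered 3, where 12.2%, 32.3% and 58.4% of all genes passed. Plaur, the urokinase receptor that gathers plasmin generation at the cell surface, rose with each, by log2 1.57, 1.79 and 3.14. Furin, the convertase that activates Mmp11, Mmp14 and Mmp23, rose by 0.27 with IL-1b and 0.79 with TGFb, and Plat, tissue plasminogen activator, fell by 1.85 with TGFb.

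Among 9 AP-1 subunits, whose motif is printed above for the cluster genes, 5 rose with IL-1b in LacZ, 3 with TGFb and 2 with bFGF, where 11.1%, 23.4% and 1.64% of all genes rose, and none fell without the block. With the block 5, 6 and 3 rose, where 32.3%, 58.4% and 12.2% of all genes passed in either direction. Jun then rose by 0.76 with bFGF (edgeR adjusted p = 0.0373), and Jund fell with bFGF, at -0.48 (0.0205). The subunits that rose with IL-1b included Junb (log2 1.93 ± 0.19 SE), Fosl1 (2.46 ± 0.52), Batf (4.01 ± 0.85) and Fosl2 (1.17 ± 0.26). Junb and Fosl1 rose with all 3 stimuli, by 0.76 and 2.07 with bFGF and by 1.74 and 1.41 with TGFb. The list's median was 1.17 with IL-1b and 0.46 with TGFb, beside -0.02 and -0.06 over all genes. Of 10 ETS factors, bFGF raised 3, IL-1b 2 and TGFb 4 in LacZ, beside 1.64%, 11.1% and 23.4% of all genes, and Elk3 was among them with each, by 0.68, 0.50 and 0.64. With the block bFGF raised 6 and lowered 1, IL-1b raised 3 and TGFb 4, where 12.2%, 32.3% and 58.4% of all genes passed. Etv1 was among those added with bFGF, at 1.87 (edgeR adjusted p = 0.0021), and Ets2 was added with IL-1b, at 1.03 (0.000132). Etv4 and Etv5, genes induced by FGF signalling, rose by 2.55 and 1.87 with bFGF.

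Of 8 surface partners and clearance receptors, Cd44, the hyaluronan receptor that docks Mmp9 at the cell surface, rose with each stimulus in LacZ, by log2 1.32, 2.52 and 1.84. Cav1, a caveolar protein, fell by 1.45 with IL-1b and by 0.93 with TGFb. With the block Thbs2, a matrix protein that takes part in the clearance of Mmp2, fell too, at -1.36 with bFGF and -1.31 with IL-1b. Of the 13 MMP genes outside the 10 described, 8 were tested: 2 rose and 1 fell with IL-1b in LacZ, where 11.1% and 8.13% of all genes did, and 3 fell with TGFb, where 22.9% did. With the block 4 rose and 3 fell with IL-1b, 4 fell with TGFb and 1, Mmp15, fell with bFGF. Of all genes, 32.3%, 58.4% and 12.2% passed in these 3 blocked comparisons. Mmp15, a membrane-bound member, fell with IL-1b and with TGFb, by 1.27 and 2.05, and Mmp28 fell by 1.15 with TGFb. In the average of iCre against LacZ none of these lists had a gene past the edgeR threshold without the block. With it, Pcsk6, a convertase, was lower in iCre, at -0.50 (edgeR adjusted p = 0.041), and Fli1, an ETS factor, at -0.47 (0.0433), where 2.83% of all genes passed.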

How the data were processed

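RNA-seq counts per Ensembl gene were deposited by the authors as 1 table of raw counts for 32 libraries, and no column lacked a sample (0). Per the submitters' processing notes the tools included FastQC 0.10.1 and HTSeq 0.10.0 with the builds mm10 and GRCm38. The sources used here do not give the aligner, the strand setting or the handling of ambiguous reads. Symbols, positions and merged exon lengths came from the GENCODE M21 annotation of GRCm38, which named 52133 of 55414 identifiers (99.77% of counts). CPM use TMM-scaled library sizes. Differences were tested with edgeR 4.0.16 (R 4.3.3): filterByExpr, robust quasi-likelihood fit with 1 mean per group over all 32 libraries, Benjamini-Hochberg adjustment over 16760 genes, threshold 0.05. The fit was tested on simulated data with known fold changes. DESeq2 1.42.0 was an alternative.

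The replicate numbers were checked as a pairing, over 52 pairs of same-numbered libraries from groups that were compared. Their deviations from the group means correlated positively in 52 of 52 pairs (r from 0.187 to 0.891). Values with the number as a block therefore stand beside the members' results and the list counts in LacZ whose calls they change. No 2 libraries of a group agreed within sampling noise (lowest chi-square per degree of freedom 9.88 over 48 pairs). The members, gene lists, tests and alternatives were chosen with earlier results of these data known. All 10 members are described. From each list at most 4 genes are named, those with the smallest p in the contrast, and genes alike are the 3 protein-coding ones outside the family with the highest Pearson r. Sequences are RefSeq promoter windows (GRCm38.p6).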

Additional observations from a re-analysis of the deposited data

Results flagged for a closer look

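In 11 of the 80 groups of 4 libraries (10 genes in 8 groups), 1 library lay far from the other 3 by Dixon's gap criterion on CPM. The criterion's rate of about 1 in 20 groups holds for independent groups of normally distributed values. CPM are skewed and the 80 groups share the same 32 libraries, so the count cannot be set against that rate. Replicate 4 was the library in 8 of them and replicate 3 in 3. In the LacZ bFGF group, replicate 4 was the highest for Mmp3 (996.2 CPM, the others 383 to 477), Mmp11 (61.18, the others 26.3 to 28.7), Mmp14 (803.5, the others 429.7 to 479) and Mmp19 (261.9, the others 99.7 to 111). In the iCre bFGF group, replicate 4 was the highest for Mmp11 (92.16 CPM, the others 26.2 to 34.4) and Mmp14 (870.1, the others 449 to 486). Replicate 4 was also the highest for Mmp9 in iCre with IL-1b (16.59 CPM, the others 2.31 to 3.72) and for Mmp11 in iCre with TGFb (84.88, the others 28.8 to 30.8). Replicate 3 was the highest in the TGFb groups, for Mmp10 in LacZ (3.789 CPM, the others 0.336 to 0.509), for Mmp12 in LacZ (0.8419, the others 0.0492 to 0.153) and for Mmp12 in iCre (3.951, the others 0.222 to 0.762).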

How the results depend on the processing

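Of 30 calls of members over 17 comparisons, 13 were kept under all alternatives run, among them Mmp3 and Mmp13 with IL-1b against SS in both vectors and Mmp2 and Mmp11 with TGFb against SS in LacZ. Of 3430 values of members under alternatives, 86 fell below the threshold and 53 passed it. No value that passed in either fit compared changed its sign (0 values), while differences that passed in neither fit did so under some alternatives. The replicate block, the fit that uses the pairing by number, moved the number of members called from 5 to 9 for IL-1b in LacZ, from 1 to 2 for bFGF in LacZ, from 0 to 2 for bFGF in iCre, from 2 to 5 for TGFb in iCre, from 0 to 1 for iCre against LacZ on average (3 with a block per pair, and 0 on counts summed over conditions with the number as a block) and from 0 to 1 for iCre against LacZ with TGFb (1 with a block per pair). It also moved the number from 5 to 6 for IL-1b in iCre and from 4 to 6 for TGFb in LacZ. Between stimuli in LacZ, the block moved it from 6 to 7 for IL-1b against TGFb and from 4 to 5 for TGFb against bFGF. The block ended no call. Without the filter on low counts, the members called with IL-1b were 4 in LacZ and 3 in iCre. With TGFb they were 3 in LacZ and 1 in iCre, with bFGF 0 in LacZ, and for TGFb against bFGF 3. When libraries were scaled by their totals alone, 4 were called for IL-1b in iCre and 0 for bFGF in LacZ. That scaling gave 5 for TGFb in LacZ, 3 for TGFb in iCre and 5 for TGFb against bFGF. RLE size factors left the counts of the main fit as they were, as did DESeq2 except for 5 instead of 4 for TGFb against bFGF.

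Leaving out single libraries, or all libraries of 1 number, gave ranges of members called. Against SS they were 3 to 7 for IL-1b in LacZ, 3 to 6 for IL-1b in iCre (3 to 5 without single libraries), 2 to 4 for TGFb in LacZ, 0 to 4 for TGFb in iCre (1 to 3 without single libraries), and 0 to 2 for bFGF in each vector (0 to 1 without single libraries). Between stimuli they were 2 to 6 for IL-1b against bFGF, 5 to 7 for IL-1b against TGFb and 1 to 5 for TGFb against bFGF (2 to 4 without 1 number). For iCre against LacZ and for the interactions they were 0 throughout. Calls that ended only without a whole number, which leaves 3 libraries per group, included Mmp2 with TGFb in iCre (edgeR adjusted p = 0.066 without number 2), Mmp9 with IL-1b in LacZ (0.0586 without number 2) and Mmp10 with IL-1b in LacZ (0.0606 without number 1). Mmp9, Mmp10, Mmp12 and Mmp13 were below 2 CPM in LacZ SS on average, down to 1 count in a library, which limits how precisely their folds are known.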
